A study of Mus musculus with 18 samples.

Results

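The genes described here are 55 genes of mitosis and of the spindle checkpoint, chosen by name for their roles in cell division. The choice was made with earlier results of these data known. All 55 were found, by gene identifier, in the deposited RNA-seq tables of both mouse embryonic stem cells (ESCs) and the epiblast-like cells (EpiLCs) made from them. Of 14411 genes in all, 13104 were listed for ESCs, 13717 for EpiLCs and 12410 for both. The members were sorted by role into 8 groups, from the kinase that starts mitosis to the proteins that split the cell.

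The study asked what Δ9-tetrahydrocannabinol (Δ9-THC), the main psychoactive compound of cannabis, does to early embryonic cells in culture. The ESCs carry the fluorescent reporters Blimp1::mVenus and Stella::ECFP in all groups and were kept in 2i+LIF medium, which holds them in naive pluripotency. EpiLCs, which resemble the epiblast just before germ cells form, were induced from them with activin A and bFGF. Both were exposed throughout culture, either to 100 nM Δ9-THC or only to the vehicle, in 3 biological replicates a group. The exposure was continuous, so the exposed EpiLCs came from ESCs that had already been exposed. Poly(A) RNA of these 12 cultures was sequenced. The paper names a female and a male clone of the reporter ESCs, and states for its ESC proliferation data that female cells were used. The labels do not say which clone these libraries were made from, and they name no second line.

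The 12 libraries held between 23427551 and 32096698 counts. The markers matched the labelled cell types. The summed level of 10 naive pluripotency genes ran from 4591 to 5030 CPM (counts scaled to a common library size by the TMM method) in ESC libraries and from 337 to 402 in EpiLC libraries. That of the formative and primed epiblast genes ran from 154 to 172 CPM in ESCs and from 1741 to 2107 in EpiLCs, and Fgf5, a defining gene of the primed epiblast, was absent from the ESC table. Lists of other cell types stayed low. Of the endoderm genes Gata4 alone was listed, at 2.38 to 3.39 CPM in ESCs and 0.911 to 1.14 CPM in EpiLCs, and of the trophoblast list Eomes alone, at 8.03 to 16.2 CPM and 3.65 to 5.27 CPM, while Gata6, Sox17, Pdgfra, Sox7, Cdx2, Elf5 and Gata3 were absent from both tables. The mesoderm and primitive streak list, which also holds Eomes, summed to 10.3 to 18.1 CPM in ESCs and 5.12 to 7.44 CPM in EpiLCs, and the neuroectoderm list to 3.11 to 5.11 CPM and 16.7 to 24.1 CPM.

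A cell enters mitosis when CDK1, bound to cyclin B, is switched on by CDC25 phosphatases. Chromosomes then condense, kinetochores built on the centromeres capture microtubules, and the spindle checkpoint holds the anaphase-promoting complex (APC/C) back until every kinetochore is attached. Once the checkpoint is satisfied, CDC20 activates the APC/C, securin and cyclin B are destroyed, separase cuts the cohesin that joins the sister chromatids, and the cell divides. ESCs cycle quickly, with short gap phases. Many mitotic genes are transcribed in late cell cycle phases through the CHR element and CCAAT boxes of their promoters, which are bound by the MuvB complexes with B-MYB and FOXM1 and by NF-Y.

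The promoters of the members were searched for the letters of these elements, which the choice of genes did not use. RefSeq promoter windows (GRCm38.p6, 250 bases before to 50 bases after the transcription start) were given for 46 of the 55 members, in 51 windows. The stretches below are the 110 bases just before the start for members that frame the results, read 5′ to 3′ on the strand of the gene. Capitals mark TTTGAA or TTTAAA (the CHR letters) and CCAAT, on either strand, so that TTCAAA and ATTGG are the same letters read from the other strand. Ccnb1, Ccnb2, Cdk1 and Top2a are shown as classical members, Plk1, Bub1, Espl1 and Fzr1 because their levels differed with Δ9-THC in ESCs.
Ccnb1, GRCm38.p6, chr13:100786487-100786596, minus strand: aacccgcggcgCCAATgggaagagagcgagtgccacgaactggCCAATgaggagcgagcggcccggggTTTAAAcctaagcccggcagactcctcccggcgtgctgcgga
Ccnb2, GRCm38.p6, chr9:70421555-70421664, minus strand: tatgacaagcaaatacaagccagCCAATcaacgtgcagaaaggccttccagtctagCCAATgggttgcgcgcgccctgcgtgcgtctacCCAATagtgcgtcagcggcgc
Cdk1, GRCm38.p6, chr10:69352913-69353022, minus strand: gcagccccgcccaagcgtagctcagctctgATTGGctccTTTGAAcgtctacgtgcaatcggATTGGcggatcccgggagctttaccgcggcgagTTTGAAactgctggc
Top2a, GRCm38.p6, chr11:99024190-99024299, minus strand: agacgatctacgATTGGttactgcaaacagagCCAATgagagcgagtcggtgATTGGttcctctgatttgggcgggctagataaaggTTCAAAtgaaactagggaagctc
Plk1, GRCm38.p6, chr7:122159325-122159434, plus strand: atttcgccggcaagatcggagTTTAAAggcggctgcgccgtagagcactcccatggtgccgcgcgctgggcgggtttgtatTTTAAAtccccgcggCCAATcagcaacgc
Bub1, GRCm38.p6, chr2:127831860-127831969, minus strand: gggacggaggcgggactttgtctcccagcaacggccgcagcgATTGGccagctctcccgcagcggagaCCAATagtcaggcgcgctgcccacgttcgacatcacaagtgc
Espl1, GRCm38.p6, chr15:102296183-102296292, plus strand: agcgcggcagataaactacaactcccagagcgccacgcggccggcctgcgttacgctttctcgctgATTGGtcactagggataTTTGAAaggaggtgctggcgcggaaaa
Fzr1, GRCm38.p6, chr10:81378371-81378480, minus strand: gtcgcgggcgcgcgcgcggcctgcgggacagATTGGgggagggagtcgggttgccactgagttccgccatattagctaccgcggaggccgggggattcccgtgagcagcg

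The Cdk1 stretch holds TTTGAA at -71 and at -15 from the start, and the Top2a stretch holds 3 CCAAT boxes, the nearest beginning at -58. Among the windows of the members 78.4% held TTTGAA or TTTAAA on either strand, against 27.6% of all 32851 windows. CCAAT was present in 82.4% of the members' windows and in 37.4% of all windows, and both kinds of letters were present in 68.6% and 10.7%. A pair of CCAAT boxes that begin 30 to 35 bases apart, as at -87, -54 and -21 in Ccnb2, was found in 10 members. This was 19.6% of the members' windows and 1.64% of all windows, and the spacing was chosen after the sequences were seen. Of the 46 members with a window 36 held CHR letters, 37 held CCAAT and 31 held both. Among the genes that rose with Δ9-THC in ESCs, as described below, Bub1, Sgo1 and Sgo2a hold CCAAT, Mad2l1 holds none of the letters, and 0 of the 4 hold CHR letters. Among the 3 that fell, Plk1 and Espl1 hold both kinds and Fzr1 holds CCAAT alone. These are too few genes to read a pattern from. A match describes the letters and does not show that a factor binds there.

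Without Δ9-THC the members spanned a wide range of levels. Per kilobase of the longest protein-coding transcript, Top2a, the topoisomerase that untangles sister chromatids, was highest in vehicle ESCs at 208 CPM per kb. Ccnb1, the cyclin B1 gene, followed at 165 CPM per kb and Cdc20 at 117 CPM per kb. The lowest was Cdc25b, a phosphatase that activates CDK1, at 8.62 CPM per kb. Below 15 CPM per kb were also Sgo2a at 10.6 CPM per kb, and Knl1, a kinetochore scaffold, at 14.0 CPM per kb.

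Between the cell types these levels differed by less, at the median, than those of all genes. The tables of the cell types were adjusted separately by the authors, so the levels are set side by side without a test. The median log2 difference, EpiLCs minus ESCs, was -0.01 over the 55 members, with 24 higher and 31 lower in EpiLCs (20 and 35 without TMM scaling). The median size of the difference was 0.23 on the log2 scale over the members and 0.48 over all 12410 genes in both tables. A difference of more than 0.5 in size was seen in 3 members (5.45%), while 48.3% of all genes differed by as much. Without TMM scaling 1 member was above 0.5 and 5 were below -0.5.

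The 3 members past 0.5 with TMM scaling act late in mitosis. Anln, which encodes the contractile ring protein anillin, was at 286 ± 12.9 CPM in vehicle ESCs and at 147 ± 16.3 CPM in vehicle EpiLCs (SD, n = 3), a log2 difference of -0.96. Fzr1, which encodes the APC/C activator CDH1, was at 102 ± 3.40 CPM in ESCs and at 70.8 ± 3.75 CPM in EpiLCs, a log2 difference of -0.52. Cdc20, the activator that precedes CDH1, moved the other way, from 210 ± 5.24 CPM in ESCs to 320 ± 24.6 CPM in EpiLCs, a log2 difference of 0.61. In none of the 3, picked for the size of their difference, did the SDs of the cell types meet. These SDs do not include any offset between the separately adjusted tables. Just within the limit of 0.5 lay Sgo2a at -0.50 and Spc25 at 0.49. By group, the spindle checkpoint genes had a median of 0.15, with 4 of 5 higher in EpiLCs, and the genes of sister separation and mitotic exit a median of -0.28, with 1 of 7 higher.

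**Figure D1:**
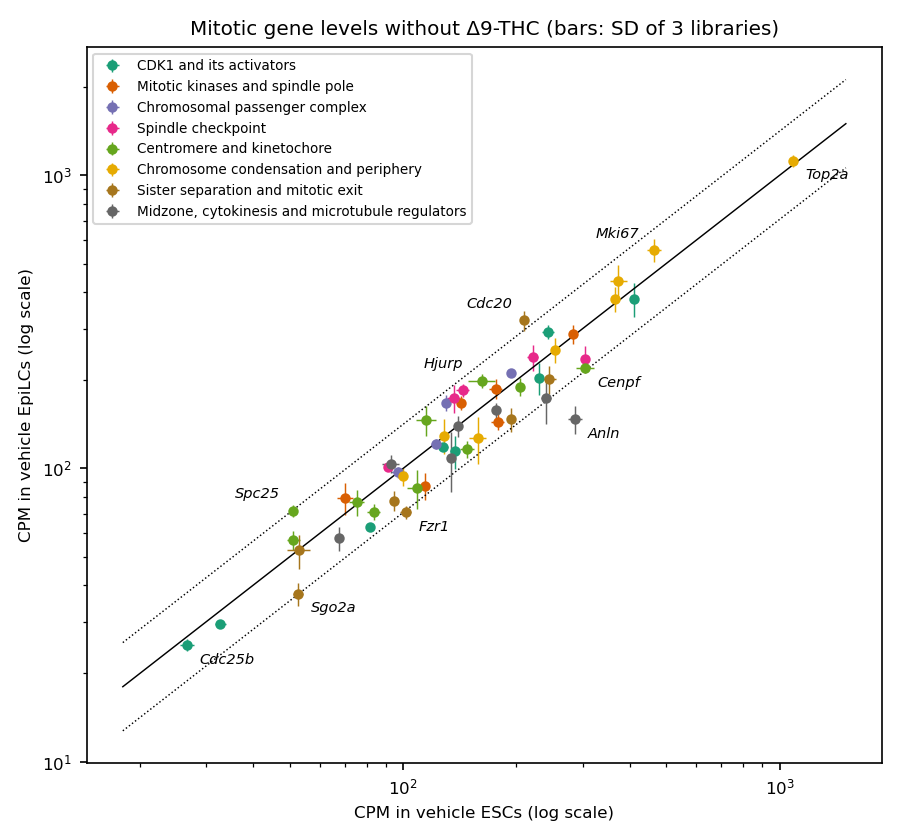
Mean level of each of the 55 members in vehicle ESCs (x axis) and vehicle EpiLCs (y axis), in TMM-scaled CPM on log axes, coloured by role, with bars for the SD of 3 libraries. The solid line marks equal levels and the dotted lines a log2 difference of 0.5; Anln, Cdc20 and Fzr1 lie outside them.

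The comparison of Δ9-THC with vehicle in ESCs addressed whether the drug, in cells whose proliferation the study followed, changed the transcripts of the division machinery. With edgeR's quasi-likelihood test and Benjamini-Hochberg adjustment over all 13104 genes, 7 of the 55 members (12.7%) passed at an adjusted p of at most 0.05, against 6.91% of all genes. The checkpoint genes Bub1 and Mad2l1 and the shugoshin genes Sgo1 and Sgo2a, which guard centromeric cohesion, rose. The 4 that rose compare with 3.37% of all genes. The mitotic kinase gene Plk1, the separase gene Espl1 and Fzr1 fell, 3 members where 3.55% of all genes fell. Because the members were chosen with earlier results of these data known, these shares are descriptions and not a test of the set. The changes were small: over the 55 members the log2(fold-change) ran from -0.22 to 0.21. In bulk RNA a change in the share of cells in mitosis and a change in the RNA per mitotic cell cannot be told apart. The paper reports a higher share of ESCs in G2/M at this dose, measured by flow cytometry and not in these libraries. In GENCODE M21 (GRCm38) the 7 are protein-coding genes, of which Plk1 lies at chr7:122159439.0-122169873.0 (plus strand), Bub1 lies at chr2:127801122.0-127831865.0 (minus strand), Mad2l1 lies at chr6:66535390.0-66547220.0 (plus strand), Sgo1 lies at chr17:53674786.0-53689333.0 (minus strand), Sgo2a lies at chr1:57995971.0-58025899.0 (plus strand), Espl1 lies at chr15:102296266.0-102324357.0 (plus strand) and Fzr1 at chr10:81366222.0-81378516.0 (minus strand).

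The call of these 7 genes did not hold under every setting. Same-numbered vehicle and exposed ESC libraries deviated from their group means in opposite directions (Pearson correlation of -0.987 to -0.977). The libraries are therefore not independent, and the p-values of fits without a replicate block do not account for that tie. When any 1 of the 6 ESC libraries was left out, 0 members were called by edgeR (13 to 21 at an unadjusted p under 0.05), with adjusted p-values of the 7 between 0.0721 and 0.155. With offsets that remove each library's trend with GC content and gene length, 0 members were called and 7 had an unadjusted p under 0.05. These offsets were fitted without regard to exposure. They would also remove a change with Δ9-THC that follows GC content or length. A fit that took replicate numbers as blocks called 0 members (7 at an unadjusted p under 0.05, smallest adjusted p = 0.414, edgeR), and so did the fit of all 12 libraries (6 at an unadjusted p under 0.05). DESeq2, without offsets or block, also called 7, which included Ect2 and not Sgo1.

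At an unadjusted p under 0.05 stood 19 members (34.5%), near the 28.7% of all genes. The 3 exposed and the 3 vehicle libraries did not overlap in 19 members (34.5%), against 32.6% of all genes. Of these, 14 were higher with Δ9-THC, a direction that 16.7% of all genes had, and 5 were lower, against 15.9%. The median log2(fold-change) of the members was 0.03, with 35 higher and 20 lower, and that of all genes was 0.0041. With the GC and length offsets the median of the members turned to -0.0091, with 27 of the 55 higher.

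**Figure D2:**
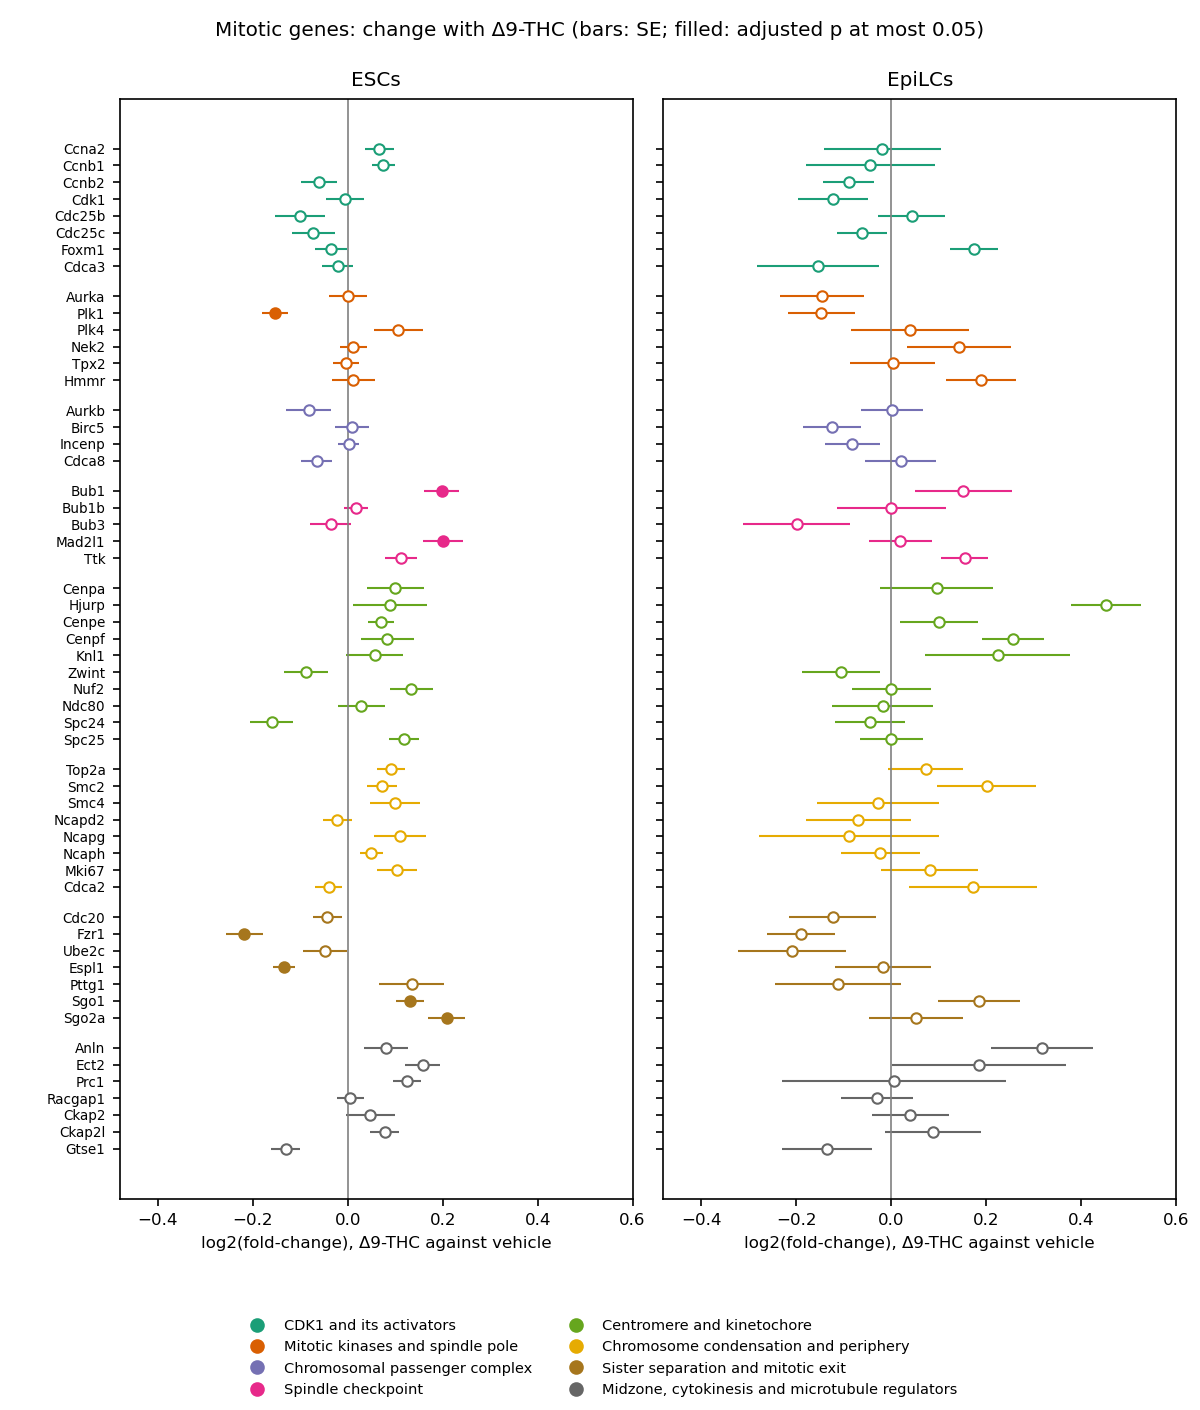
The log2(fold-change) with Δ9-THC against vehicle of each member in ESCs (left) and EpiLCs (right), ordered and coloured by role, with bars for the standard error from edgeR and filled points for an adjusted p of at most 0.05. The 7 filled points in ESCs are Plk1, Bub1, Mad2l1, Fzr1, Espl1, Sgo1 and Sgo2a, there are none in EpiLCs, and with GC and length offsets 0 were called in ESCs.

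The genes of CDK1 and its activators did not pass in ESCs. This group of 8 holds the cyclins Ccna2, Ccnb1 and Ccnb2, Cdk1 itself, the phosphatases Cdc25b and Cdc25c, the transcription factor Foxm1 and Cdca3, an F-box protein gene that promotes mitotic entry. Their median log2(fold-change) was -0.03 (-0.02 with offsets), with 2 higher and 6 lower. Cdc25b had the largest value in size. It was at 25.3, 27.0 and 27.6 CPM with vehicle and at 26.1, 24.4 and 24.0 CPM with Δ9-THC, and the groups overlapped. Its log2(fold-change) was -0.10 ± 0.05 (SE, adjusted p = 0.253, edgeR), and -0.04 with offsets.

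Among the 6 genes of mitotic kinases and the spindle pole, Plk1 fell. PLK1 drives centrosome maturation, mitotic entry and the removal of cohesin from chromosome arms. Its libraries stood at 143, 139 and 144 CPM with vehicle and at 127, 130 and 126 CPM with Δ9-THC. All 3 exposed libraries were below all 3 vehicle libraries. The log2(fold-change) was -0.15 ± 0.03 (SE, adjusted p = 0.0362, edgeR), and -0.07 with offsets (adjusted p = 0.184, edgeR). The other members of the group, Aurka, Plk4, Nek2, Tpx2 and Hmmr, ran up to 0.11, and the group median was 0.0059 (-0.02 with offsets).

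None of the 4 genes of the chromosomal passenger complex passed. This complex of Aurora B, survivin, INCENP and borealin (Aurkb, Birc5, Incenp and Cdca8) corrects faulty attachments. Aurkb, the largest in size, was at 101, 92.2 and 98.01 CPM with vehicle and at 87.7, 96.0 and 91.0 CPM with Δ9-THC. These values overlapped, and the log2(fold-change) was -0.08 ± 0.05 (SE, adjusted p = 0.304, edgeR), and -0.05 with offsets. The group median was -0.03, with and without offsets.

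In the spindle checkpoint group of 5, Bub1 and Mad2l1 rose, and 4 of 5 had a positive log2(fold-change) with a median of 0.11 (0.03 with offsets). BUB1 is the kinase that recruits checkpoint proteins and shugoshin to kinetochores. Bub1 was at 228, 216 and 216 CPM with vehicle and at 243, 257 and 258 CPM with Δ9-THC, with no overlap. Its log2(fold-change) was 0.20 ± 0.04 (SE, adjusted p = 0.0363, edgeR). MAD2, the product of Mad2l1, binds CDC20 and so holds the APC/C inactive. Mad2l1 was at 142, 139 and 150 CPM with vehicle and at 166, 170 and 158 CPM with Δ9-THC, again with no overlap. Its log2(fold-change) was 0.20 ± 0.04 (SE, adjusted p = 0.0456, edgeR). With offsets both values were 0.06. Ttk, which encodes the checkpoint kinase MPS1, had non-overlapping groups as well and did not pass, while Bub1b and Bub3 overlapped.

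Of the 10 centromere and kinetochore genes 0 passed, 8 were higher and 2 lower, and the median was 0.08 (-0.02 with offsets). The group covers the centromeric histone Cenpa and its chaperone Hjurp, the motor Cenpe, and the outer kinetochore genes Knl1, Zwint, Nuf2, Ndc80, Spc24 and Spc25, with Cenpf. Spc24 had the largest value in size. It was at 86.8, 83.0 and 80.1 CPM with vehicle and at 71.1, 74.8 and 77.7 CPM with Δ9-THC. The exposed libraries all lay below the vehicle libraries, and the log2(fold-change) of -0.16 ± 0.05 did not pass (SE, adjusted p = 0.0798, edgeR). With offsets Spc24 was at -0.12. Its partners in the NDC80 complex, Nuf2, Ndc80 and Spc25, had positive values between 0.03 and 0.13, and with offsets Ndc80 was at -0.06.

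The 8 genes of chromosome condensation and periphery likewise held 0 that passed, with 6 higher, 2 lower and a median of 0.08 (-0.02 with offsets). They are Top2a, the condensin genes Smc2, Smc4, Ncapd2, Ncapg and Ncaph, the proliferation marker Mki67, whose product coats mitotic chromosomes, and Cdca2. Ncapg, the largest, was at 165, 160 and 148 CPM with vehicle and at 162, 168 and 181 CPM with Δ9-THC, with overlap. Its log2(fold-change) was 0.11 ± 0.05 (SE, adjusted p = 0.235, edgeR), and -0.05 with offsets. Of its exonic bases 13.4% are shared with other genes, where reads counted without strand cannot be assigned.

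The genes of sister separation and mitotic exit held 4 of the 7 calls, in both directions. Sgo1 and Sgo2a encode shugoshins, a protein family that protects cohesin at the centromere during cell division. Sgo1 was at 95.0, 95.5 and 92.4 CPM with vehicle and at 102, 102 and 106 CPM with Δ9-THC. Sgo2a was at 54.4, 51.7 and 51.7 CPM with vehicle and at 58.5, 61.7 and 62.1 CPM with Δ9-THC. Neither gene's groups overlapped. The log2(fold-change) of Sgo1 was 0.13 ± 0.03 (SE, adjusted p = 0.0498, edgeR), just inside the threshold, and was not called with RLE normalization (adjusted p = 0.0518) or by DESeq2 (adjusted p = 0.109). That of Sgo2a was 0.21 ± 0.04 (SE, adjusted p = 0.0372, edgeR), and 35.04% of its exonic bases are shared with other genes. With offsets the values were 0.0037 for Sgo1 and 0.07 for Sgo2a.

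Espl1 and Fzr1, in the same group, fell. Espl1 encodes separase, the protease that opens cohesin once securin (Pttg1) is gone. Espl1 was at 194, 191 and 192 CPM with vehicle and at 173, 177 and 177 CPM with Δ9-THC. Fzr1 was at 97.7, 102 and 105 CPM with vehicle and at 90.4, 86.5 and 85.0 CPM with Δ9-THC. In both genes the exposed libraries were all lower than the vehicle libraries. The log2(fold-change) was -0.13 ± 0.02 for Espl1 (SE, adjusted p = 0.0327, edgeR) and -0.22 ± 0.04 for Fzr1 (SE, adjusted p = 0.0340, edgeR). With offsets these were -0.03 and -0.07. The remaining genes, Cdc20, Ube2c and Pttg1, did not pass, and the group median was -0.04 (0.03 with offsets).

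Of the 7 genes of the midzone, cytokinesis and microtubule regulation 0 passed, 6 were higher and 1 lower, with a median of 0.08 (0.0079 with offsets). Ect2, the exchange factor that turns on RhoA for the contractile ring, had the largest value. It was at 243, 244 and 231 CPM with vehicle and at 263, 261 and 278 CPM with Δ9-THC, with no overlap. Its log2(fold-change) of 0.16 ± 0.04 fell just outside the threshold (SE, adjusted p = 0.0530, edgeR), and DESeq2 called it (adjusted p = 0.0338). With offsets the value was 0.0070 (adjusted p = 0.905, edgeR). Prc1, the bundler of midzone microtubules, and Ckap2l were also higher without overlap, and Gtse1 was lower without overlap. Anln, Racgap1 and Ckap2 overlapped.

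**Figure D3:**
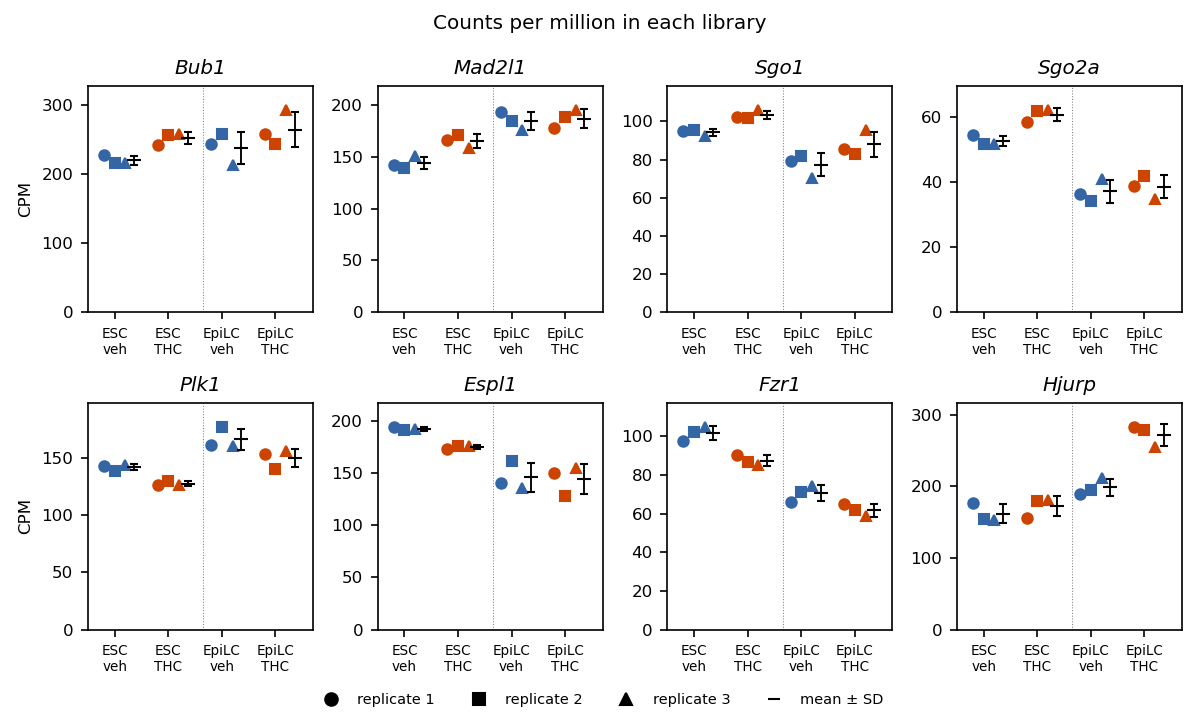
TMM-scaled CPM of the 7 members called in ESCs and of Hjurp in each of the 12 libraries (blue, vehicle; orange, Δ9-THC; marker shape, replicate number), with the mean ± SD of 3 libraries beside them on axes that start at 0. In ESCs the exposed libraries of the 7 genes all lie on 1 side of the vehicle libraries, and in EpiLCs those of Hjurp lie between 254 and 282 CPM, above vehicle libraries of 189 to 212 CPM.

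The direction of a member in ESCs went with the base composition of its transcript. The members' transcripts ranged from 37.7% GC in Knl1 to 59.9% in Fzr1, with a median of 46.6% against 50.2% over all genes with a value. Of 21 members under 45% GC, 19 were higher with Δ9-THC, with a median log2(fold-change) of 0.09. Of 19 members at 50% GC or more, 13 were lower. The 4 genes that rose lie between 40.1% and 41.5% GC, and the 3 that fell between 56.0% and 59.9%. Across the 55 members Spearman's rho of log2(fold-change) with GC content was -0.74, and across 13083 genes it was -0.55. These points share the same 6 libraries, and the coefficients are descriptions. With offsets, which remove the trend with GC content over all genes by design, they were 0.09 and 0.0045. Whether base composition itself set the values of the members was not tested.

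**Figure D4:**
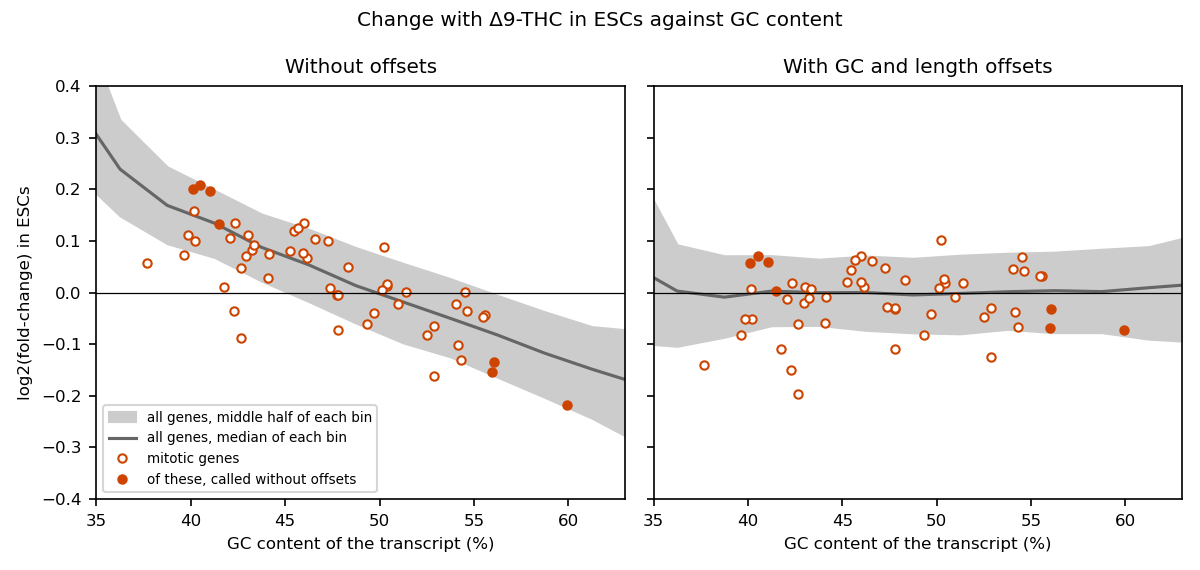
The log2(fold-change) with Δ9-THC in ESCs against the GC content of the transcript, without offsets (left) and with GC and length offsets (right), for the members (orange circles, filled for the 7 called without offsets) over the median and quartiles of all genes in bins of GC content (grey). Without offsets the members and the grey band both slope down (rho of -0.74 and -0.55). The offsets remove the trend over all genes by design, and with them both are level (0.09 and 0.0045).

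In EpiLCs 0 members and 0 of 13717 genes (0.0%) were called with edgeR's quasi-likelihood test and Benjamini-Hochberg adjustment. At an unadjusted p under 0.05 stood 7 members (12.7%), against 15.1% of all genes. DESeq2 called 71 genes, of which 1 was a member, Hjurp. The fit of all 12 libraries together called 411 genes, of which 2 were members, Hjurp and Cenpf. The median log2(fold-change) of the members was 0.00058, with 30 higher and 25 lower, beside 0.0030 for all genes. It was -0.0018 with RLE normalization and -0.04 with offsets.

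The groups did not overlap in 13 members (23.6%), against 21.8% of all genes in EpiLCs. Of these, 8 were higher (11.2% of all genes) and 5 lower (10.6%). The 8 were Foxm1, Hmmr, Ttk, Hjurp, Cenpf, Smc2, Sgo1 and Anln. The 5 were Ccnb2, Cdk1, Cdc25c, Plk1 and Fzr1, of which the first 3 belong to the CDK1 group. Their names were written down after their values were seen.

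Hjurp had the widest gap of the members in EpiLCs. HJURP is the chaperone that loads the histone CENP-A at centromeres after mitosis. Hjurp was at 189, 194 and 212 CPM with vehicle and at 282, 279 and 254 CPM with Δ9-THC. Every exposed library was above every vehicle library, and the closest 2 were at 254 and 212 CPM. The log2(fold-change) was 0.45 ± 0.07 (SE, adjusted p = 0.144, edgeR), with an adjusted p of 0.00161 by DESeq2 and 0.0194 in the edgeR fit of all 12 libraries. It was not called with offsets (0.38, adjusted p = 0.229, edgeR), with the replicate block (adjusted p = 0.999, edgeR) or with any EpiLC library left out (adjusted p from 0.339 to 0.452, edgeR). In ESCs the same gene was at 177, 155 and 153 CPM with vehicle and at 156, 179 and 181 CPM with Δ9-THC, with overlap and a log2(fold-change) of 0.09 ± 0.08 (SE, adjusted p = 0.501, edgeR). Cenpa, the gene of the histone it carries, overlapped in both cell types.

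In the CDK1 group Foxm1 was the largest in EpiLCs. FOXM1 activates many late cell cycle genes. Foxm1 was at 61.7, 63.7 and 62.8 CPM with vehicle and at 71.5, 70.0 and 70.8 CPM with Δ9-THC, with no overlap. Its log2(fold-change) was 0.17 ± 0.05 (SE, adjusted p = 0.216, edgeR), or 0.16 with offsets. Of the other 7 genes of that group 6 had negative values, and the group median was -0.05 (-0.06 with offsets).

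Among the kinases and spindle pole genes, Hmmr, which encodes a microtubule-binding protein of the spindle pole, was at 145, 152 and 134 CPM with vehicle and at 162, 155 and 174 CPM with Δ9-THC. The groups did not overlap, and the log2(fold-change) was 0.19 ± 0.07 (SE, adjusted p = 0.309, edgeR), or 0.09 with offsets. In the passenger complex, Birc5 (survivin) was at 123, 115 and 124 CPM with vehicle and at 108, 116 and 108 CPM with Δ9-THC. These overlapped through the second replicate of each group, and the log2(fold-change) was -0.12 ± 0.06 (SE, adjusted p = 0.399, edgeR), or -0.17 with offsets. In the checkpoint group, Bub3, which carries BUB1 and BUBR1 to the kinetochore, was at 170, 193 and 156 CPM with vehicle and at 154, 133 and 166 CPM with Δ9-THC. It overlapped too, with a log2(fold-change) of -0.20 ± 0.11 (SE, adjusted p = 0.456, edgeR), or -0.28 with offsets.

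Smc2, a core subunit of condensin, was at 264, 225 and 271 CPM with vehicle and at 277, 324 and 272 CPM with Δ9-THC. The closest libraries were nearly equal, and the log2(fold-change) was 0.20 ± 0.10 (SE, adjusted p = 0.419, edgeR), or 0.04 with offsets. Ube2c, the ubiquitin-conjugating enzyme of the APC/C, was at 199, 224 and 181 CPM with vehicle and at 176, 154 and 192 CPM with Δ9-THC. It overlapped, with a log2(fold-change) of -0.21 ± 0.11 (SE, adjusted p = 0.440, edgeR) and -0.13 with offsets, and 22.8% of its exonic bases are shared with other genes. Anln was at 157, 154 and 129 CPM with vehicle and at 169, 175 and 204 CPM with Δ9-THC. It did not overlap, and its log2(fold-change) was 0.32 ± 0.11 (SE, adjusted p = 0.255, edgeR), or 0.21 with offsets.

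The median SD of the members on the log2 scale was 0.05 in vehicle ESCs and 0.05 in exposed ESCs, where all genes had 0.08 and 0.08. In EpiLCs it was 0.12 in both groups, and 0.14 and 0.15 for all genes. In EpiLCs the median of the members also differed between libraries of 1 group. In the second vehicle library 33 of the 55 members lay above the mean of the 6 EpiLC libraries, with a median deviation of 0.05, and in the first vehicle library 14, with a median deviation of -0.04. In the second exposed library the median deviation was -0.05, and in the other two it was 0.04 and 0.03. The sum over the 55 members was 9991 ± 58.8 CPM in vehicle ESCs and 10278 ± 103 CPM in exposed ESCs, and 9801 ± 335 and 9997 ± 330 CPM in EpiLCs (SD, n = 3).

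**Figure D5:**
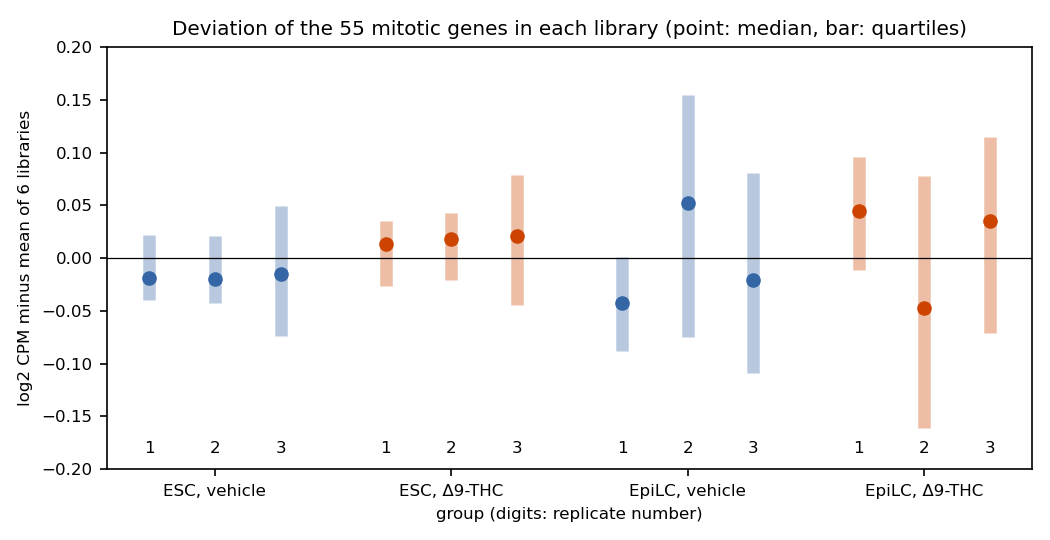
Deviation of the members in each of the 12 libraries, as log2 CPM minus each gene's mean over the 6 libraries of its cell type, with the median of the 55 members (point) and their quartiles (bar), for vehicle (blue) and Δ9-THC (orange). In ESCs the vehicle medians lie between -0.02 and -0.01 and the exposed ones between 0.01 and 0.02, while in EpiLCs the second library of each group departs from the other two.

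Set side by side, the cell types shared a direction in many members. With Δ9-THC 24 members were higher in both cell types, 14 were lower in both and 17 went opposite ways, so that 69.1% shared a sign, against 58.9% of 12410 genes. With offsets the shares were 54.5% and 51.4%. In 4 members (7.27%) the groups did not overlap in either cell type and lay in 1 direction, which held for 4.8% of all genes. Sgo1 and Ttk were higher in both, and Plk1 and Fzr1 lower in both. With offsets the ESC values of Sgo1 and Ttk, 0.13 and 0.11 without them, were 0.0037 and 0.0099 (adjusted p = 0.951 and 0.880, edgeR), and those of Plk1 and Fzr1 were -0.07 and -0.07. In EpiLCs Plk1 was at 162, 177 and 160 CPM with vehicle and at 154, 141 and 156 CPM with Δ9-THC, and Fzr1 at 66.2, 70.9 and 74.4 CPM and at 65.2, 61.6 and 58.6 CPM, neither of which passed the test there.

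Whether the shift with Δ9-THC differed between the ESC and EpiLC cultures was tested by the interaction term of a model with all 12 libraries. The exposed EpiLCs came from exposed ESCs, so cell type and length of exposure cannot be told apart in this contrast. With edgeR's quasi-likelihood test and Benjamini-Hochberg adjustment, 0 of 55 members were called, as were 4 of 12410 genes (0.0322%), and DESeq2 called 133 genes and 0 members. At an unadjusted p under 0.05 stood 2 members (3.64%), Foxm1 and Hjurp, against 13.7% of all genes. The shift of Foxm1 was 0.22 ± 0.06 higher in EpiLCs on the log2 scale (SE, adjusted p = 0.153, edgeR) and that of Hjurp 0.38 ± 0.11 higher (SE, adjusted p = 0.165, edgeR). The 7 calls in ESCs were thus not shown to be particular to ESCs.

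Other genes of the same processes were counted beside the members. Of 71 listed genes 70 were tested in both tables: subunits of the APC/C, cohesin and its regulators, condensin II, further centromere and kinetochore genes, regulators of mitotic entry and the MuvB and B-MYB genes. In ESCs 4 of the 70 rose and 0 fell by edgeR's quasi-likelihood test, where 3.37% and 3.55% of all genes did so. The 4 were Cdc27, an APC/C subunit, Cenpl of the inner kinetochore, Mastl, the Greatwall kinase that restrains the phosphatase PP2A in mitosis, and Lin9, a core MuvB subunit. Their log2(fold-change) values were 0.18 ± 0.03, 0.16 ± 0.04, 0.22 ± 0.05 and 0.21 ± 0.04 (SE), and with offsets, where none of the 4 passed (adjusted p from 0.143 to 0.705, edgeR), 0.03, 0.03, 0.09 and 0.10. The 70 had a median of 0.06, with 54 higher and 16 lower, and -0.0089 with offsets. In EpiLCs 0 of the 70 were called, and 38 were higher and 32 lower, with a median of 0.02. The 13 cohesin genes had the highest median of these lists in ESCs, 0.12 with 11 higher, and -0.0057 with offsets, at a median GC content of 42.3%.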

How the data were processed

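Poly(A) RNA of 12 libraries was analysed, and the 6 PGCLC libraries were not analysed here. The authors aligned reads with STAR, counted uniquely mapped reads per gene with HTSeq without strand, removed genes of low count and applied ComBat-seq to batches that are not named in the sources used here. Their sources give the build as mm10 and as GRCm39. The deposited counts are these adjusted counts, as whole numbers, in 1 table for each cell type. The 12 columns were matched to samples by label, with 0 left over. Depth was 23427551 to 32096698 counts. The p-values rest on the spread that the adjustment left between cultures labelled as biological replicates. These libraries are tied by replicate number, as described below, so that spread is not the one between independent cultures.

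Exposures were compared within each table by the quasi-likelihood test of edgeR 4.0.16 (R 4.3.3, TMM, more than 10 counts in total, Benjamini-Hochberg, adjusted p of at most 0.05), and the cell types by an interaction over 12 libraries. Log2 CPM used a prior count of 2. SEs are those implied by F. Fits were tested on simulated counts of independent libraries, with planted changes larger than those of the members. That does not test their p-values in libraries tied by number. Alternatives were DESeq2 1.42.0, RLE, dropping the filter or asking for 10 counts in each library, a replicate block, GC and length offsets (splines with 5 degrees of freedom), both, all 12 libraries, and each library left out. Positions, lengths and GC content came from GENCODE M21 (GRCm38), and RefSeq gave promoters. Values in every library are given for called members and, in each role group and cell type, the member of largest change. Other members are given by range and counts, and other genes are named where 5 or fewer were called. The members and lists were chosen with earlier results of these data known.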

Additional observations from a re-analysis of the deposited data

How the results depend on the processing

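In ESCs the 906 genes called became 5 with the replicate number as a block, 2 with GC and length offsets, 4 with both, 31 in the fit of all 12 libraries and 0 to 1 with any library left out. The 7 members called became 0 in the block fit, with offsets, with both, in the fit of all 12 libraries and with any library left out (0 to 0). The median log2(fold-change) of the members was -0.0091 with offsets and -0.0092 with offsets and the block, and Ncapg turned to -0.0505 in either fit. In EpiLCs DESeq2 called 71 genes and 1 member, and the fit of all 12 libraries 411 genes and 2 members. The interaction, with 4 genes called, gave 133 with DESeq2, 23 with offsets and 0 with the block. The cause of these differences was not tested. RLE and either filter kept the members called within 6 to 7.

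No source says that a replicate number marks a shared batch. Deviations from the group means of vehicle and exposed libraries correlated at -0.987 to -0.977 in ESCs and -0.985 to -0.979 in EpiLCs where the numbers were the same, and at 0.223 to 0.695 where they were not. The libraries of the adjusted tables are thus tied by number and not independent, which the p-values of the fit without the block do not account for. The SDs within groups and the counts of groups that do not overlap come from the same adjusted libraries. With the block 1454 genes in ESCs and 291 in EpiLCs had an unadjusted p under 0.05. Counting error is largest, relative to level, for the members of lowest level, such as Cdc25b at 24.9 CPM in vehicle EpiLCs.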
